A study of Mus musculus with 2 samples.

Results

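The 7 genes described here encode the readers and demethylases of N6-methyladenosine (m6A): the YTH domain genes Ythdf1, Ythdf2, Ythdf3, Ythdc1 and Ythdc2, and the demethylase genes Alkbh5 and Fto. Members were chosen by gene, and their data are the unique genome positions, on the gene's strand and within its annotated exons, that any of the 17 deposited lists of m6A sites holds. There were 218 such positions, of 160430 in all lists. Native poly(A) RNA of wild-type (WT) and Mettl3 knockout (KO) mouse 129 embryonic stem cells was sequenced on the Oxford Nanopore platform, with 1 library per condition and no replicates. In the KO cells, exons 5 to 7 of Mettl3, which encodes the catalytic subunit of the m6A methyltransferase, had been replaced on both alleles by puromycin and hygromycin resistance genes, and the study cultured drug-selected colonies without stating how many went into the library. Of the 10 tools, 3 (Nanocompore, DiffErr and DRUMMER) gave 1 list each from setting WT against KO, and the other 7 (xPore, Epinano, ELIGOS, m6Anet, Nanom6A, MINES and Tombo) gave a list for each library. xPore also works by setting WT against KO, but its lists are per library and were counted as such. The study tested sites in RRACH, where R is A or G, H is any base but G and the target adenosine is the third base, and all 218 positions lay in 1 of these 12 5-mers, as did 99.5% of WT or comparison positions in all genes.

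The lists hold positions alone, with no score, rate or coverage. The study required a minimum number of reads per tested site, higher for m6Anet than for the other tools, but the depth behind each position is unknown. An unlisted position can be unmethylated, too thinly covered, below a tool's cut-off or, for MINES, outside the 4 5-mers it reports, and with 1 library per condition no test across samples was possible. The intervals given below are exact (Clopper-Pearson) 95% binomial intervals that cover counting error only, and positions of 1 gene share reads and are not replicates. At Mettl3 itself, exons 5 to 7 held 2 positions listed in WT and 0 listed in KO, and the other exons held 11 and 5. An absence in KO was not particular to the replaced exons. Exons 1, 2, 3 and 4 held 3, 1, 1 and 2 positions in WT and 0 each in KO, and the KO positions lay in exons 8, 10 and 11. Of the 9 genes taken as markers of embryonic stem cells, 8 had listed positions, 234 in all, whereas 3 of the 5 genes taken as markers of feeder fibroblasts and 5 of the 6 of differentiated germ layers had none. Sox17, an endoderm gene, had 12 positions in WT and 0 in KO. Among the feeder fibroblast genes, Col1a1 had 3 in KO and 0 in WT, and Thy1 had 1 in KO and 3 in WT.

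As background, m6A is placed on nascent mRNA by the Mettl3-Mettl14 complex at a short motif around the target adenosine. Proteins with a YTH domain bind the methylated base in an aromatic pocket: Ythdf1, Ythdf2 and Ythdf3 are close cytoplasmic paralogues tied to mRNA translation and decay, Ythdc1 is a nuclear reader tied to splicing and export, and Ythdc2 is an RNA helicase required in the germ line. Alkbh5 and Fto are dioxygenases of the AlkB family that remove the methyl group. The mRNAs of these genes can carry m6A themselves, so the mark may lie on the transcripts of its own readers and erasers.

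Of the 218 positions, 173 were in a WT or comparison list, 132 were in a KO list and 87 were in both. The support of a position, as used below, is how many of the 10 tools have it in their WT or comparison list. These tools are not independent: per the study, MINES takes values computed by Tombo as input, and DiffErr and DRUMMER are error-based tools of similar principle. Alkbh5 had the most WT or comparison positions with 35, followed by Ythdc1 with 32, Fto and Ythdf1 with 29 each, Ythdf3 with 27 and Ythdf2 with 21, while Ythdc2 had 0. In the KO lists, Ythdf2 had the most with 27, then Ythdf1 with 25, Ythdc1 and Fto with 19 each, Alkbh5 and Ythdf3 with 17 each and Ythdc2 with 8. Ythdf2 and Ythdc2 were the 2 genes of the 7 with more positions in KO than in WT. On its coding transcript alone, Ythdc1 also had more in KO (19) than in WT or the comparison (16).

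**Figure D1:**
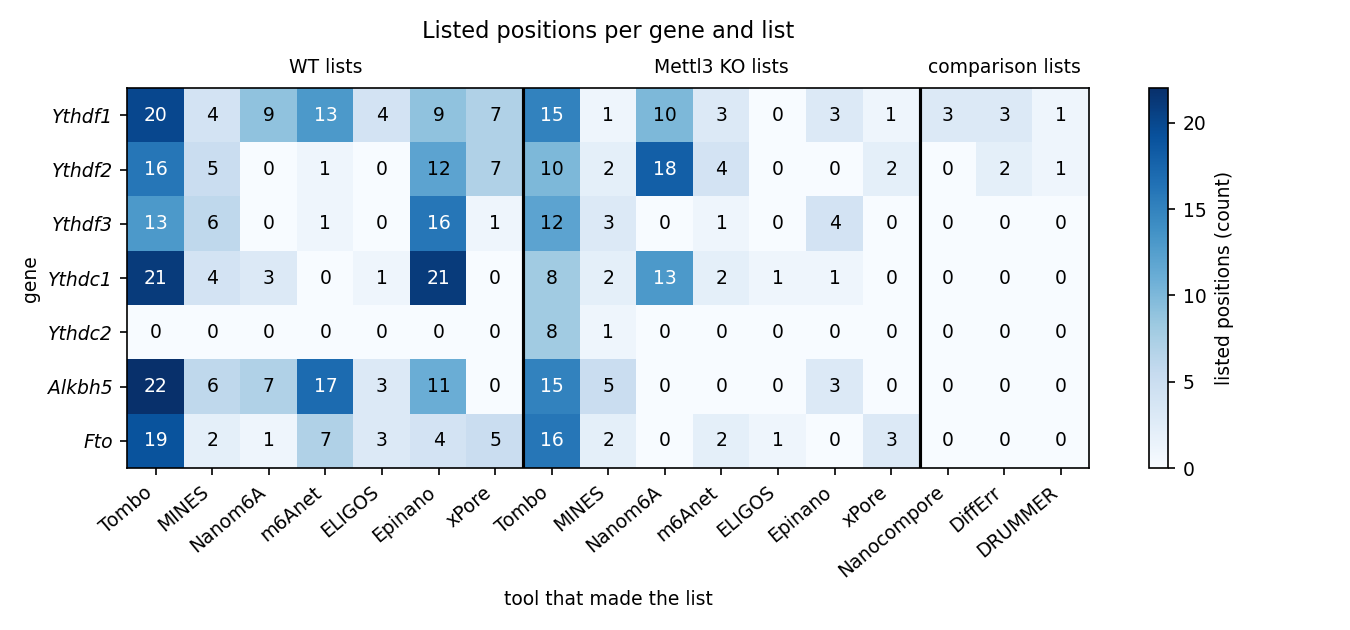
Number of listed positions (numbers in the cells and colour) for each of the 7 genes (rows) in each of the 17 lists (columns: 7 WT lists, 7 Mettl3 KO lists and 3 comparison lists). The comparison lists have entries in Ythdf1 and Ythdf2 alone, Ythdc2 has none in WT, and the 18 Nanom6A positions of Ythdf2 are all in KO.

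Transcripts differ in how many RRACH positions they offer for listing. Each gene was placed on its coding transcript named by most lines, and the share of that transcript's RRACH positions in a WT or comparison list was 60.4% in Ythdf1 (29 of 48, interval 45.3% to 74.2%), 56.9% in Fto (42.2% to 70.7%), 50.7% in Alkbh5 (38.4% to 63.0%), 43.5% in Ythdf3 (31.0% to 56.7%), 37.2% in Ythdc1 (23.0% to 53.3%) and 35.0% in Ythdf2 (23.1% to 48.4%). Neighbours in this order did not differ beyond their intervals. Ythdc2 stood apart with 0 of 99. Over all genes with a listed position the share was 25.2%. In KO the order was Ythdf1 (52.1%), Ythdf2 (45.0%), Ythdc1 (44.2%), Fto (37.3%), Ythdf3 (27.4%), Alkbh5 (24.6%) and Ythdc2 (8.08%), against 21% over all genes. The KO interval of Alkbh5 (15.1% to 36.5%) lay below its WT interval. Both shares are of the same RRACH positions, so overlap of intervals ignores this pairing. Over all exons, positions in WT or comparison lists only and in KO lists only were 23 and 5 in Alkbh5, 11 and 1 in Fto and 16 and 6 in Ythdf3. They were 20 and 7 in Ythdc1, 9 and 5 in Ythdf1, 7 and 13 in Ythdf2 and 0 and 8 in Ythdc2. Over all annotated exons, including those of transcripts that no list names, 173 of the members' 725 RRACH positions were in a WT or comparison list (23.9%, 20.8% to 27.1%) against 17% of RRACH positions in all genes, and 132 were in a KO list (18.2%, 15.5% to 21.2%) against 14.2%.

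**Figure D2:**
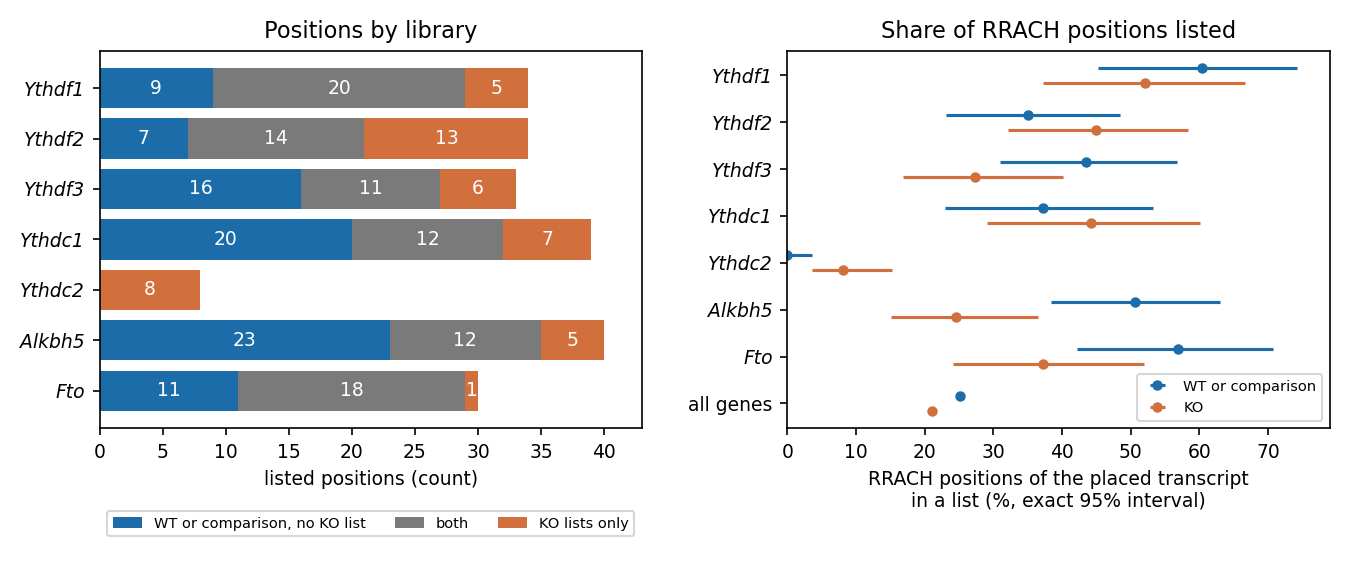
Left, listed positions per gene (count), split into those in a WT or comparison list but no KO list, those in both and those in KO lists only. Right, share of the RRACH positions of each gene's placed transcript (%) that WT or comparison lists hold and that KO lists hold, with exact 95% binomial intervals, beside all genes. In Alkbh5 the WT interval lies above the KO interval, and Ythdc2 has 8 positions in KO only.

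The KO lists serve as the background measured without the methyltransferase. Of the 173 WT or comparison positions, 86 were in no KO list (49.7%, 42.0% to 57.4%), against 41.0% of the 129045 positions in all genes. The share was 65.7% in Alkbh5 (23 of 35, 47.8% to 80.9%), 62.5% in Ythdc1, 59.3% in Ythdf3, 37.9% in Fto, 33.3% in Ythdf2 and 31.0% in Ythdf1 (9 of 29, 15.3% to 50.8%). A part of Ythdc1 exon 11, described below, held 16 of the 86. Without it the share was 25.0% in Ythdc1 (7.27% to 52.4%) and 44.6% in the 7 members (70 of 157, 36.7% to 52.7%). The share also moved with the tools: it was 66.4% with Tombo left out of WT and KO, against 53.0% in all genes.

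A listing is 1 position in 1 tool's list. Of the members' 301 WT listings, 95 were repeated by the same tool in KO (31.6%, 26.3% to 37.1%), against 44.5% of the listings in all genes. Tombo, which compares the current with a model of unmodified RNA, repeated 61 of 111 of its listings in the members (55.0%, 45.2% to 64.4%) and 59.7% in all genes. Epinano, which uses base-calling errors, repeated 5 of 73 (6.85%, 2.26% to 15.3%), against 16.5%. The classifiers m6Anet and Nanom6A repeated 6 of 39 (15.4%, 5.86% to 30.5%) and 6 of 20 (30.0%, 11.9% to 54.3%), against 34.4% and 65.4% in all genes. Alkbh5 gave 17 of these 39 m6Anet listings and 7 of these 20 Nanom6A listings, with 0 repeated by either tool. Intervals without Alkbh5 were not computed. For m6Anet and Nanom6A, the members' intervals lay below the value of all genes. That of Epinano did so only with the part of Ythdc1 exon 11 described below: without it Epinano repeated 5 of 59 (8.47%, 2.81% to 18.7%), Tombo 61 of 100 (61.0%, 50.7% to 70.6%) and all 7 tools together 95 of 274 (34.7%, 29.0% to 40.6%). MINES repeated 14 of 27 (51.9%, 31.9% to 71.3%), against 40.2%. ELIGOS repeated 1 of 11 and xPore 2 of 20, against 11.5% and 24.9%, both values inside the members' intervals. With Tombo left out, the share was 17.9% (34 of 190, 12.7% to 24.1%), against 35.5% in all genes. The mix of tools differs between these pools. Nanom6A gave 20 of the members' 190 listings and 33539 of the 126317 in all genes, and Epinano 73 and 44559. The pooled shares, here and over all 7 tools, were not adjusted for this mix. Between the demethylases, Fto repeated 22 of 41 listings (53.7%, 37.4% to 69.3%) and Alkbh5 14 of 66 (21.2%, 12.1% to 33.0%), and these intervals did not overlap. The tools behind them differed: Tombo gave 19 of the 41 and 22 of the 66, and m6Anet 7 and 17. Within Tombo the intervals did overlap (78.9%, 54.4% to 93.9% in Fto and 45.5%, 24.4% to 67.8% in Alkbh5). Listings of several tools at 1 position are also not independent.

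Single tools went in opposite directions from gene to gene. Nanom6A listed 0 positions of Ythdf2 in WT and 18 in KO, and 3 of Ythdc1 in WT and 13 in KO, whereas it listed 7 of Alkbh5 in WT and 0 in KO, which was the case for 100 of the 2349 genes (4.26%) with at least 5 Nanom6A positions in WT. Of the 960 coding genes with at least 10 Nanom6A positions in KO, 12 (1.25%) had 0 in WT, and Ythdf2 was 1 of them. Epinano listed 12 positions of Ythdf2 in WT and 0 in KO, as in 149 of the 1175 genes (12.7%) with at least 10 Epinano positions in WT, so that for Ythdf2 the direction between the libraries depended on the tool. In Alkbh5, m6Anet listed 17 positions in WT and 0 in KO, which was the case for 41 of the 608 genes (6.74%) with at least 10 m6Anet positions in WT. Whether coverage moved with these counts was not tested, since the lists give none.

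A comparison list held 7 of the 173 positions (4.05%, 1.64% to 8.16%), against 2.45% in all genes, and 5 of the 7 lay in Ythdf1 and 2 in Ythdf2. With the WT list of xPore counted as a comparison list, they were 21 of 173 (12.1%), against 5.42% in all genes, and that list held 7 positions in Ythdf1, 7 in Ythdf2, 5 in Fto and 1 in Ythdf3. Support of at least 6 tools was reached at 3 positions (1.73%, 0.359% to 4.98%), against 1.98% in all genes, and all 3 lay in Ythdf1. At the other end, 98 of the 173 (56.6%, 48.9% to 64.1%) rested on 1 tool, against 65.3% in all genes. Of the 15 positions with support of at least 4, 9 were in no KO list (60.0%, 32.3% to 83.7%), against 26.7% of the positions of that support in all genes. These 15 lay in Ythdf1 (7), Alkbh5 (4), Ythdf2 (2) and Fto (2). In Ythdf3 and Ythdc1 no position had a support above 3.

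**Figure D3:**
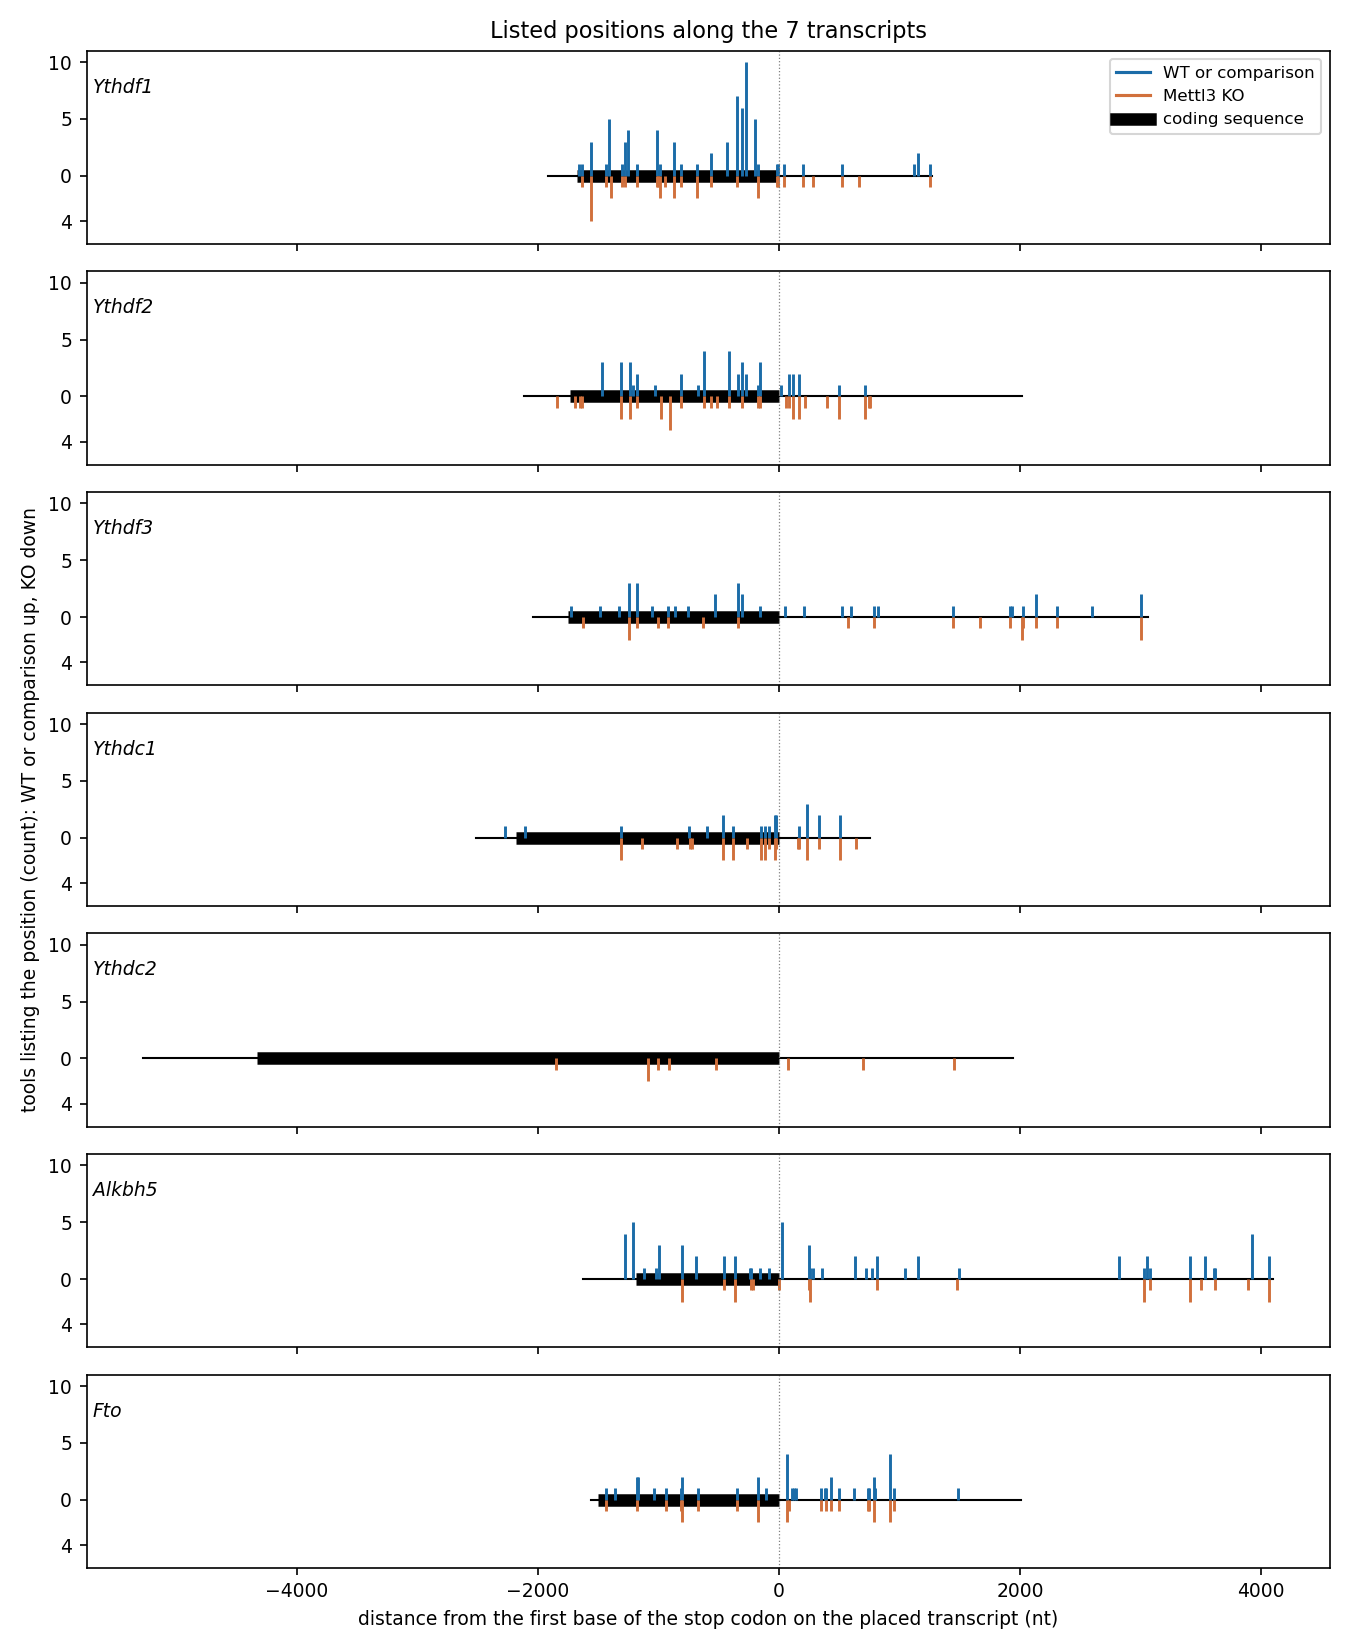
Listed positions along the placed coding transcript of each gene (the 16 of Ythdc1 outside it are plotted separately). The horizontal axis is the distance from the first base of the stop codon (nt), the thick bar is the coding sequence, and line height is the number of tools that list the position in WT or the comparison (up) or in KO (down). The tallest WT lines are in the coding sequence of Ythdf1 before the stop codon, with a support of 10, 7, 6 and 5, and the tallest of Alkbh5, with a support of 5, are near both ends of its coding sequence.

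Placed transcripts held 157 of the 173 WT or comparison positions, and the other 16 were those of Ythdc1 exon 11. Of the 157, 85 were in the coding sequence (54.1%), 69 in the 3′ UTR (43.9%) and 3 in the 5′ UTR, and all genes gave 56.7%, 40.2% and 3.16%. The coding share was highest in Ythdf1 (23 of 29, 79.3%) and lowest in Alkbh5 (11 of 35, 31.4%), which has a 3′ UTR of 4097 nt. A distance of at most 200 nt from the stop codon was found for 29 of the 157 (18.5%, 12.7% to 25.4%), against 22.5% of listed positions in all genes. At least 100 nt from the nearest exon junction lay 127 of 157 (80.9%, 73.9% to 86.7%), against 54.3% in all genes. Of the RRACH positions on the members' transcripts, 68.8% lay that far from a junction, against 56.4% in all genes. This share was 88.2% in the YTHDF genes, 84.1% in Alkbh5 and 66.7% in Fto, but 39.5% in Ythdc1 and 38.4% in Ythdc2, which are made of many shorter exons. Ythdc2 gave 99 of the 432 RRACH positions behind the 68.8% but none of the 157 listed positions. The base without Ythdc2 was not computed.

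The 3 YTHDF genes have the same exon plan, with a long coding exon 4 of 1521 nt in Ythdf1, 1584 nt in Ythdf2 and 1599 nt in Ythdf3. In Ythdf1 (ENSMUSG00000038848, chr2:180904377-180920949, minus strand), 18 of the 26 RRACH positions of exon 4 were in a WT or comparison list, in Ythdf2 (ENSMUSG00000040025, chr4:132184912-132212303, minus strand) 15 of 24, and in Ythdf3 (ENSMUSG00000047213, chr3:16183212-16217037, plus strand) 12 of 27. Exon 4 held 7 positions of support 4 or more in Ythdf1, 2 in Ythdf2 and 0 in Ythdf3. In the last exon, which is mostly 3′ UTR, 8 of 18, 6 of 31 and 14 of 33 RRACH positions were listed in WT.

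All 3 positions of support 6 or more stood near the end of the coding part of Ythdf1, in exon 4, at 275, 308 and 346 nt before the stop codon. The GGACA at 180910937 was listed by all 10 tools in WT or the comparison and by 0 in KO. The GGACA at 180911008 had a support of 7, DiffErr included, and was in the KO list of Nanom6A. The GGACT at 180910970 had a support of 6, Nanocompore included, and was in 0 KO lists. A further 2 comparison positions of Ythdf1 were the AGACT at 180910861, listed by 5 tools and in 0 KO lists, and the GGACA at 180911676, listed by 4 tools and by Tombo in KO. The 1 position of the members that at least 3 tools listed in both libraries was the GGACA at 180919147 in exon 3 of Ythdf1, which Tombo, MINES and Epinano listed in WT, and the same 3 tools and m6Anet in KO.

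The proteins of the 3 genes are alike (70.2% of aligned residues are identical between Ythdf1 and Ythdf2, 72.1% between Ythdf1 and Ythdf3 and 71.8% between Ythdf2 and Ythdf3), so listed positions could be set beside the aligned codon of each paralogue. Shown first is the most widely listed site of Ythdf1 with the aligned windows of its paralogues, 21 bases each from GRCm38 on the coding strand, with the centred 5-mer in capitals.
Ythdf1 chr2:180910927-180910947: tggtctcaGGACAagtggaag
Ythdf2 chr4:132204372-132204392: tggtcccaGGACAaatggaag
Ythdf3 chr3:16205164-16205184: tggtctcaGGATAagtggaag
The Ythdf3 window has 20 of 21 bases in common with that of Ythdf1, and the 1 difference is C12T, counted from 1 at the 5′ end of the window and written from Ythdf1 to Ythdf3. It turns the 5-mer into GGATA, which is not RRACH, and no list held it. Ythdf2 keeps GGACA there, and Epinano and xPore listed it in WT and no tool in KO.

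A set of 4 aligned positions was listed in WT in all 3 genes. The 3 with a support above 1 in at least 1 gene are shown as triplets, so that the same codon position can be read in each paralogue, and the capitals again mark the 5-mer. At codon 90 of Ythdf1, in GGACA, the support was 5 in Ythdf1, 3 in Ythdf2 and 1 in Ythdf3, and none of the 3 was in a KO list.
Ythdf1 chr2:180912060-180912080: ctacctatGGACAacttagta
Ythdf2 chr4:132205568-132205588: cttcttatGGACAactgagca
Ythdf3 chr3:16203953-16203973: caacctatGGACAaatgagta
At codon 444 of Ythdf1 the support was 7, 2 and 3, and 1 tool listed the position in KO in Ythdf1 and in Ythdf3. In Ythdf2 this position was in the DiffErr comparison list.
Ythdf1 chr2:180910998-180911018: atgggagtGGACAtttctgtg
Ythdf2 chr4:132204443-132204463: acggcagtGGACActtctgtg
Ythdf3 chr3:16205093-16205113: atggcagtGGACAtttttgtg
At codon 457 of Ythdf1 the support was 6, 3 and 2, and Ythdf2 was listed in KO by Nanom6A.
Ythdf1 chr2:180910960-180910980: tcccctgtGGACTacggcacc
Ythdf2 chr4:132204405-132204425: tctgctgtGGACTacaacaca
Ythdf3 chr3:16205131-16205151: tctgttgtAGACTataatgct
The other of the 4, an AAACC at codon 230 of Ythdf1, had a support of 1 in each gene, and in Ythdf1 it was in the KO lists of Tombo and Epinano. In every triplet the support was at least as high in Ythdf1 as in its paralogues.

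**Figure D4:**
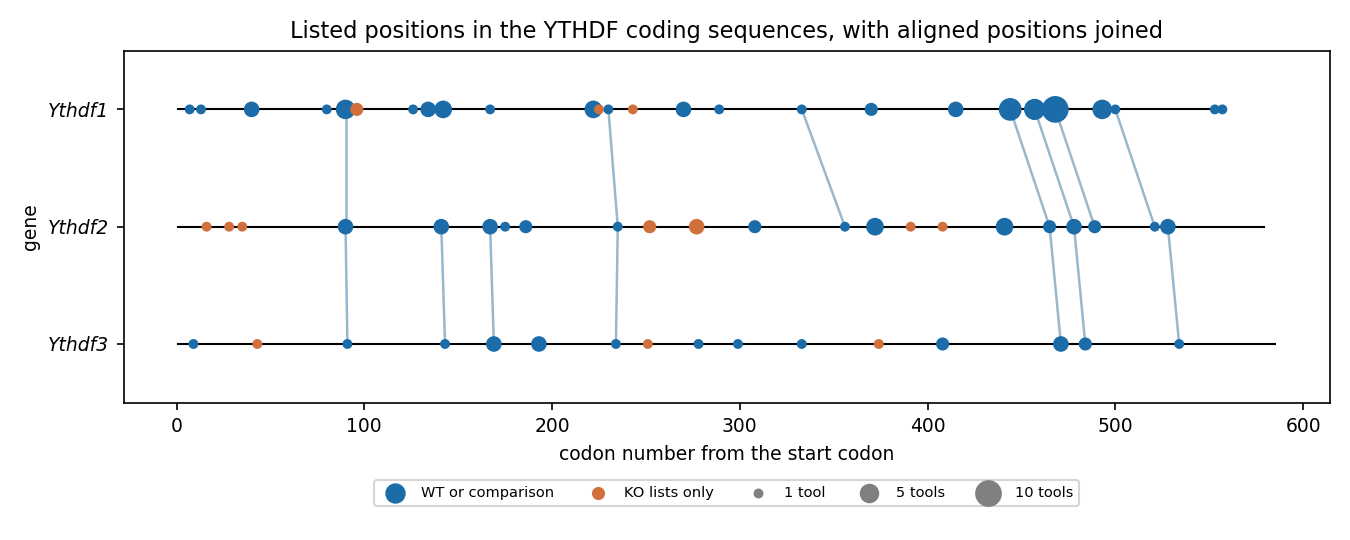
Listed positions in the coding sequences of the 3 YTHDF genes by codon number, with circle area in proportion to the number of tools (WT or comparison in blue, KO lists only in orange, sized by the KO tools). Grey-blue lines join aligned positions that are listed in WT in both genes. Of these, 7 join Ythdf1 and Ythdf2, and the 4 shared by all 3 genes run through.

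Conserved RRACH positions gave the base for these overlaps. Of the 33 RRACH positions in the coding sequence of Ythdf1, 10 were aligned to an RRACH position of Ythdf2, and 8 of these 10 were listed in WT in Ythdf1, 7 in Ythdf2 and 7 in both. Against Ythdf3, 9 were aligned, with 8 listed in Ythdf1, 4 in Ythdf3 and 4 in both, and between Ythdf2 and Ythdf3, 13 were aligned, with 8, 9 and 7. The conserved share listed in Ythdf1 (80.0% against Ythdf2, 44.4% to 97.5%) did not differ beyond its interval from that of its other coding RRACH positions (15 of 23, 65.2%, 42.7% to 83.6%). The study removed secondary alignments, so each read was counted on 1 transcript, and whether a read of 1 paralogue was assigned to another was not tested.

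Ythdf2 also had its most supported positions in exon 4. The AGACT at 132204525 was listed by Tombo, xPore, DiffErr and DRUMMER, and by Nanom6A in KO. The GGACA at 132204732 was listed by Tombo, MINES, Epinano and xPore, and by Tombo in KO. Of its 27 KO positions, 13 were in no WT or comparison list (48.1%, 28.7% to 68.1%), against 29.2% of KO positions in all genes, and Nanom6A, which listed none of this gene in WT, held 12 of the 13. These 13 lay in the 5′ UTR (1), the coding sequence (7) and the 3′ UTR (5). Ythdf3 had no position in the 3 comparison lists, and 20 of its 27 WT positions rested on 1 tool (74.1%, 53.7% to 88.9%), against 65.3% in all genes. Epinano listed 16 of them, Tombo 13 and MINES 6, while m6Anet and xPore listed 1 each, and Nanom6A and ELIGOS 0. Its 3 best supported positions, the GGACA at 16204197, the GGACT at 16204269 and the GGACA at 16205103, were each listed by Tombo, MINES and Epinano and each also in KO, by 2, 1 and 1 tools.

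Ythdc1 (ENSMUSG00000035851, chr5:86804221-86836659, plus strand) had 32 WT positions in 2 parts that were shared to different degrees with KO. Of these, 16 lay in the last exon and other exons of the coding transcript, and 12 of these 16 were also in KO (25.0% in no KO list, 7.27% to 52.4%). In the last exon, exon 17 of 976 nt, all 11 RRACH positions were listed in KO and 9 of them in WT. The other 16 lay in a stretch of 1358 nt, from 86828122 to 86829479, and were in 0 KO lists. This stretch continues exon 11 beyond its end in the coding transcript (167 nt, ending at 86828121) and is annotated as an exon of 1525 nt in ENSMUST00000156363, a transcript of the nonsense-mediated decay class.

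In this added stretch of exon 11, 16 of the 24 RRACH positions were listed in WT (66.7%, 44.7% to 84.4%) and 0 of 24 in KO (upper bound of the interval 14.2%). All 9 GGACT in the stretch were among the 16. Epinano listed 14 of the 16, Tombo 11 and MINES 2, and 9 had at least 2 tools. No other list held any. All 27 lines in the stretch named ENSMUST00000156363, which 37 WT lines and 4 KO lines named in all. The coverage of this transcript is unknown in both libraries, and fewer reads of the isoform and fewer methylated bases cannot be told apart. The 2 positions listed by all 3 of these tools are shown with the GGACT in capitals, on the plus strand.
Ythdc1 chr5:86828846-86828866: gtacctgtGGACTtaaagtgt
Ythdc1 chr5:86829219-86829239: gcctaaaaGGACTgatcacca
By contrast, the best supported position of the last exon was the GAACA at 86836138, 232 nt after the start of the stop codon, which Tombo, Nanom6A and Epinano listed in WT and Tombo and Nanom6A in KO. One position of Ythdc1, at 86815675, also lies in an exon of the gene model Gm43055 on the same strand.

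**Figure D5:**
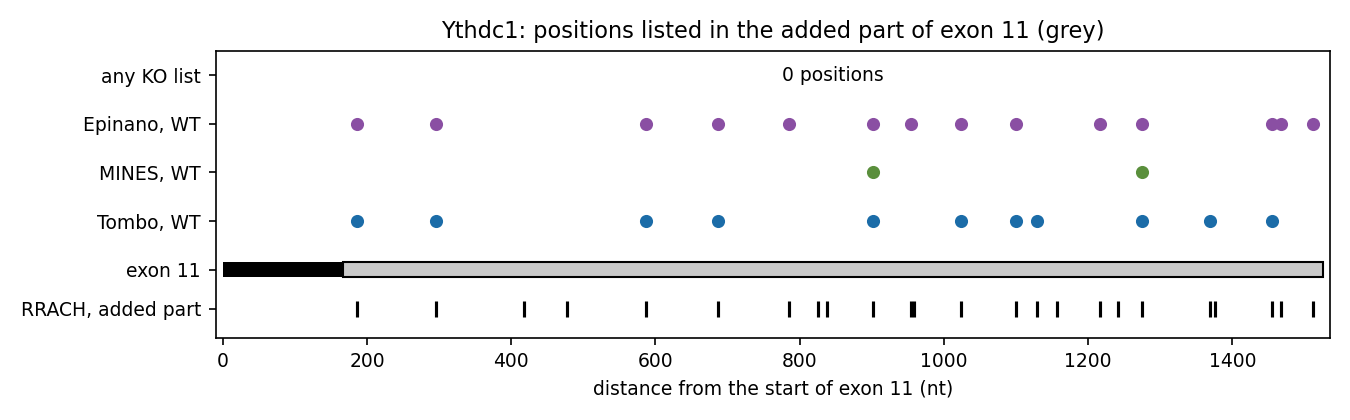
Exon 11 of Ythdc1 by distance from its start (nt). The black bar is the part in the coding transcript (167 nt), the grey bar the added part (1358 nt), ticks are the 24 RRACH positions of the added part, and points are the positions that Tombo, MINES and Epinano listed in WT. The row for the KO lists is empty in the added part, while 16 RRACH positions are listed in WT.

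Ythdc2 (ENSMUSG00000034653) differed from the other members in having no WT or comparison position. Tombo listed 8 positions in KO, and MINES 1 of these 8. Of the 8, 0 were in GGACT, which is the 5-mer of 3 of the transcript's 99 RRACH positions and of 7.43% of KO-only positions in all genes. These 8 lay in exons 20 to 30 of the 30 exons of its transcript, 5 in the coding sequence and 3 in the 3′ UTR. Their distance from the 3′ end of the transcript ran from 485 to 3786 nt. A lack of WT positions was found in 992 of the 10261 coding genes with a listed position (9.67%), and 225 of the 992 had at least 8 positions in KO, as Ythdc2 did. Coverage in the WT library is unknown.

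Alkbh5 (ENSMUSG00000042650, chr11:60536381-60558512, plus strand) had 4 positions with a support of at least 4, of which 3 lay near the ends of its coding sequence and 1 near the end of its 3′ UTR, and none of them was in KO. In its 5′ UTR, in exon 1 of 1218 nt, 2 of 3 RRACH positions were listed in WT, and both were in GGACC: 60538333 was listed by Tombo, MINES, m6Anet and Epinano, and 60538397 by these 4 and ELIGOS. They were 2 of the 3 WT positions in the 5′ UTR of any member. The GGACT at 60554435, 22 nt after the first base of the stop codon, was listed by Tombo, Nanom6A, m6Anet, ELIGOS and Epinano. The other position with a support of 4 was the GGACT at 60558333, 3920 nt after it. The 3 near the ends of the coding sequence are shown with the 5-mer in capitals, on the plus strand.
Alkbh5 chr11:60538323-60538343: ggcactgaGGACCctcgcttc
Alkbh5 chr11:60538387-60538407: gccgcggaGGACCctagagtt
Alkbh5 chr11:60554425-60554445: ccctcttgGGACTctggctaa
All 8 listed positions of exon 1 were in WT and 2 of them in KO, and in exon 4, of 4275 nt, 24 were in WT and 12 in KO. Of the 17 positions that m6Anet listed in WT, none was in its KO list, and 10 of the 22 of Tombo were in its KO list.

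Fto (ENSMUSG00000055932, chr8:91313525-91668439, plus strand), the other demethylase gene, had 29 WT positions and, like the other members but Ythdf1 and Ythdf2, none in the 3 comparison lists, although xPore listed 5 of its positions in WT. The 3′ UTR held 17 of the 29 (58.6%), and 51.0% of the RRACH positions of its transcript. The best supported positions of Fto were also in KO, unlike those of Alkbh5. The GGACA at 91666499, 66 nt after the first base of the stop codon, was listed by Tombo, MINES, Nanom6A and ELIGOS in WT and by Tombo and MINES in KO. The GGACT at 91667355, 922 nt after it, was listed by Tombo, m6Anet, Epinano and xPore in WT and by Tombo and m6Anet in KO. Both lie in the last exon, which held 18 of the 29 WT positions.
Fto chr8:91666489-91666509: caaaccttGGACAagggtagt
Fto chr8:91667345-91667365: gagagcatGGACTccgatttc
These 2 windows are shown, with the 5-mer in capitals, because they were the only Fto positions with a support above 2. Of the 19 KO positions of Fto, 1 was in no WT or comparison list (5.26%, 0.133% to 26.0%), against the 29.2% of all genes.

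The 5-mers around the adenosine were shared unequally between the libraries. GGACT made up 24 of the 173 WT or comparison positions (13.9%, 9.10% to 19.9%), 18 of the 86 in no KO list (20.9%, 12.9% to 31.0%) and 1 of the 45 in KO lists only (2.22%, 0.0562% to 11.8%). In all genes these shares were 11.9%, 13.7% and 7.43%, each inside the members' interval. Read the other way, 18 of the 24 GGACT positions were in no KO list (75.0%, 53.3% to 90.2%), against 47.3% of the GGACT positions in all genes. Of these 18, 9 were those of Ythdc1 exon 11, and whether the difference holds without that stretch was not tested. GGACA, with 33 positions the most frequent 5-mer in WT, had 11 in no KO list (33.3%, 18% to 51.8%), close to the 33.7% in all genes. All 12 WT positions in AGACA were also in KO, against 28.8% of AGACA positions in no KO list in all genes. Tombo listed these in both libraries, except the Fto position at 91401835, which xPore listed in both.

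Other genes of the pathway gave the setting. All 10 writer genes (Mettl3, Mettl14, Wtap, Virma, Zc3h13, Cbll1, Rbm15, Rbm15b, Mettl16 and Pcif1) had listed positions, 157 in WT or the comparison and 137 in KO, of which 78 of the 157 were in no KO list (49.7%, 41.6% to 57.8%) and 0 in a comparison list. The other 7 AlkB family genes (Alkbh1 to Alkbh4 and Alkbh6 to Alkbh8) had 50 WT positions, 19 of them in no KO list (38.0%, 24.7% to 52.8%). The 6 indirect readers (Igf2bp1, Igf2bp2, Igf2bp3, Hnrnpa2b1, Hnrnpc and Fmr1) had 144, 40 of them in no KO list (27.8%, 20.6% to 35.8%), and 1 comparison position in Hnrnpa2b1. Of the 10261 coding genes with a listed position, 15.3% had a comparison position. The markers of embryonic stem cells had 20 among 228 WT or comparison positions (8.77%, 5.44% to 13.2%), with 5 in Zfp42 and 4 each in Sox2 and Klf4, beside the 5 of Ythdf1 and the 2 of Ythdf2.

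Genes with the most similar vector of counts over the 17 lists were found by the Bray-Curtis dissimilarity among 10261 coding genes (0 for identical vectors). For Ythdf1 they were Nodal (0.102) and Thumpd1 (0.113), for Ythdf2 Poglut1 (0.191) and Dyrk3 (0.209), for Ythdf3 Dlg5 (0.088) and Fam160a2 (0.089), and for Ythdc1 Cpsf6 (0.173) and Axin1 (0.203). For Alkbh5 they were Mprip (0.093) and Nol9 (0.131), and for Fto Fanci (0.150) and Efr3a (0.152). Ythdc2 had vectors identical to those of Lgr4 and Lrfn3, which likewise rest on 9 listings in KO. Likeness here is of list counts alone.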

How the data were processed

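Per the labels and the study's methods, poly(A) RNA was sequenced with the SQK-RNA002 kit, basecalled by the authors with Guppy v5.0.7, aligned with Minimap2 v2.17 to the GENCODE VM18 transcriptome of GRCm38 (mm10), and filtered for secondary and supplementary alignments with Samtools v1.6. The authors deposited lists of called positions, and the cut-off behind each list is not stated with it. The study chose a cut-off for each tool by the highest summed F1 score against miCLIP and miCLIP2 sites. Whether the lists use it is not stated with them. The deposited values are genome positions (no count, rate or other measured unit).

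Starts were made 1-based, and positions were joined to exons of GENCODE M21 on the same build. All 453 lines of the members that name a transcript matched its M21 position. Five-mers were read from the GRCm38 RefSeq genome. YTHDF proteins were translated from the placed transcripts and aligned globally (BLOSUM62, gap opening -11, extension -1). Computations used Python 3.11.15, pandas, scipy, pysam and Biopython, and placing and sequence reading were tested on simulated positions.

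Named positions were the up to 3 with the most tools per gene, those in a comparison list, and those listed by at least 3 tools in both libraries. Positions that complete a count or an alignment were named after their values were seen. The members and lists were chosen with earlier results of these data known.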

Additional observations from a re-analysis of the deposited data

How the results depend on the processing

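Of 40 alternatives to 10 results, 24 left a share inside the interval of the reported value, or a count within 1.5 times of it, and 16 did not. Counting 1 site per line gave 319 WT or comparison sites in place of 173, and leaving out Tombo gave 81 KO positions in place of 132. The share in no KO list was 80.9% with the KO lists of Tombo and Nanom6A set aside, 68.4% of listings by the same tool and 66.4% without Tombo. The share in a comparison list was 1.16% for at least 2 of the 3 tools and 12.1% with the xPore WT list counted. The share of repeated listings was 17.9% without Tombo and 16.5% without Tombo and Nanom6A. The share of RRACH positions listed was 35.1% on transcripts that a list names, 36.3% on the placed transcripts and 17.7% without Tombo. The stop codon share was 7.64% within 100 nt and 33.1% within 400 nt, the junction share was 68.8% at 200 nt or more, and GGACT made up 20.9% of the positions in no KO list. The causes follow from the construction of each alternative (fewer tools, other windows or denominators).

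Leaving out Nanom6A, and leaving out the added part of Ythdc1 exon 11 (no KO list 44.6%, repeated listings 34.7%, GGACT 9.55%), were chosen after seeing the data. No analysis paired across samples was possible because each condition has 1 library, and no test paired by position was run. Depth per position is unknown, so unlisted positions cannot be read as unmethylated, and 1 library per condition gives no spread between replicates.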
